A study of Mus musculus with 4 samples.

Results

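The regions described here are 1108 stretches of autosomal DNA whose methylation was lower with each step in division number among induced fibroblasts. They are clusters of at least 3 CpGs, with neighbouring CpGs at most 100 bp apart and at least 10 reads on each CpG in all 4 libraries. A cluster's level is its methylated reads as a percentage of all its reads. A cluster was a member if it had at least 100 reads in every library, if its level after 1 division was at least 5 percentage points below that after 0 divisions, and if its level after more than 3 divisions was at least another 5 points below that. Of 95090 autosomal clusters, 76115 had the reads to be judged and 18975 did not, and the 1108 members were 1.46% of those judged. Members were thus chosen by their levels in the 3 induced libraries, so the falls themselves are a description and support nothing. The control library took no part in the choice, and its level is used as a check.

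The libraries came from secondary inducible mouse embryonic fibroblasts (MEFs) of a 129/SvJ x C57/B6 hybrid, which carry reprogramming factors that doxycycline switches on. Uninduced MEFs formed the control group. The other 3 groups received doxycycline for 96 hours. They are named by the divisions their cells made in that time, on average 0 (0Div) or 1 (1Div) in the first of them. The last group (>3Div) is labelled >3 and described as 3 or more divisions on average. Serum was 10% in the growth medium, 15% in the medium with doxycycline and 0.5% in a starvation medium, per the labels. The labels do not say which group had which, so division number, medium and serum cannot be told apart. Each group had 1 library, so there is no replicate check of any value, and a difference between libraries is not shown to be a difference between conditions. Gene expression was not measured in these libraries, so the labelled cell type was not checked against markers.

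A CpG is methylated on both strands, and replication makes a daughter duplex in which the new strand is bare. The maintenance enzyme DNMT1, guided by UHRF1, copies the mark onto the new strand, and a CpG missed in successive rounds is diluted with each division. Most CpG-poor DNA in fibroblasts is highly methylated, most CpG islands are free of methylation, and imprinted control regions carry methylation on the copy from 1 parent, which places them at intermediate levels. Reduced representation bisulfite sequencing (RRBS) reads the ends of short MspI fragments, cut at the sequence ccgg, after a treatment that turns unmethylated cytosine into thymine.

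The 4 members whose sequences follow lie just before a gene start and had every CpG shown falling at both steps, and are printed to show what a member is. Each run is from the RefSeq promoter table (GRCm38.p6), 5′ to 3′ on the gene's strand, with the member's CpGs in capitals. The member positions beside them are those of the deposited tables, on mm9. Promoters were matched to the deposited positions by the spacing of their CpGs, since no mm9 sequence was used here. The MspI site ccgg occurs once in the Oxgr1 and Plagl1 stretches and 2 times in the other stretches.
Oxgr1, minus strand, bases 215 to 162 before the start (chr14:120441828-120441860): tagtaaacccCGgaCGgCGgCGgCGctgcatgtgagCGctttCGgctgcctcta
Plagl1, plus strand, bases 219 to 169 before the start (chr10:12810428-12810457): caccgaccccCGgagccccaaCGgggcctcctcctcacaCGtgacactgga
Zfp33b, plus strand, bases 165 to 27 before the start (chr5:105000535-105000652): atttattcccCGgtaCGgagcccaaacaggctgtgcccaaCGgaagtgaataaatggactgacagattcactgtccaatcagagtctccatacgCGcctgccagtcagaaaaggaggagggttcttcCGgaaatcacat
C330024D21Rik, plus strand, bases 106 to 5 before the start (chr5:67855040-67855168): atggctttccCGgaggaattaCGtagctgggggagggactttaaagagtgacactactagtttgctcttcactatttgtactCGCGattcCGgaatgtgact

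Oxgr1 encodes a receptor for the metabolite oxoglutarate. Its 7 CpGs lie within 33 bp. The member stood at 50% of 288 reads in control, 43.8% of 598 in the 0Div, 33.0% of 312 in the 1Div and 8.07% of 161 in the >3Div library. The 95% Wilson intervals, which cover counting error only, were 44.3% to 55.7%, 39.9% to 47.8%, 28.0% to 38.4% and 4.78% to 13.3% in that order. The first CpG shown, 205 bases before the start, went through 46.3%, 38.1%, 24.4% and 4.35%, and the last, 173 bases before it, through 52.4%, 48.8%, 37.8% and 13%. Each of the 7 CpGs had 23 reads in the >3Div library, and CpGs this close can share reads, so they are not 7 separate measurements.

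Plagl1, an imprinted zinc-finger transcription factor that restrains growth, gave 3 CpGs. Their level was 59.9% (53.6% to 65.9%) in control, 59.1% (54.5% to 63.6%) in the 0Div, 52.1% (46.7% to 57.5%) in the 1Div and 29.3% (24.3% to 34.9%) in the >3Div library. Control and the undivided library were thus close, and the intervals of the 1Div library and control overlapped. In the Zfp33b promoter, of a zinc-finger gene, the CpGs differed within the member: in control the CpG 155 bases before the start was at 12.2% and that 38 bases before it at 40.0%, and in the >3Div library these were at 3.12% and 3.6%. At C330024D21Rik all 5 CpGs shown were between 50.7% and 75% in control and between 35.5% and 52.8% in the >3Div library, and all 5 were higher in the 0Div library than in control.

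The tables sum to between 84606824 (control) and 94775128 (>3Div) reads over CpGs. Members were covered less deeply than clusters at large: the median member had 285.5 reads in control, 280 in the 0Div, 271.5 in the 1Div and 216.5 in the >3Div library, against 418, 429, 420 and 406 over all clusters judged. The ratio of a cluster's reads in the >3Div library to those in control had a median of 0.812 in members, 0.704 in the 18012 clusters that fell at the second step alone, 1.05 in the 2809 that fell at the first step alone, and 1.14 over all clusters. Depth in the >3Div library moved with the second step, and its part in the levels was not tested.

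Across the members the median level was 60.3% in control, 65.4% in the 0Div, 57.3% in the 1Div and 43.0% in the >3Div library. The median first step was 6.7 points and the median second step 10.5 points, and the largest were 32.0 and 50.9 points. In clusters that fell at the second step alone the medians were 78.9%, 78.4%, 80.2% and 68.6% in the same order. Those falling at the first step alone had medians of 68.2%, 72.3%, 64.5% and 66.8%. The median control level of the members was thus below that of either group, and 81.4% of them lay between 20% and 80% in control, against 46.2% and 52.8%.

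**Figure D1:**
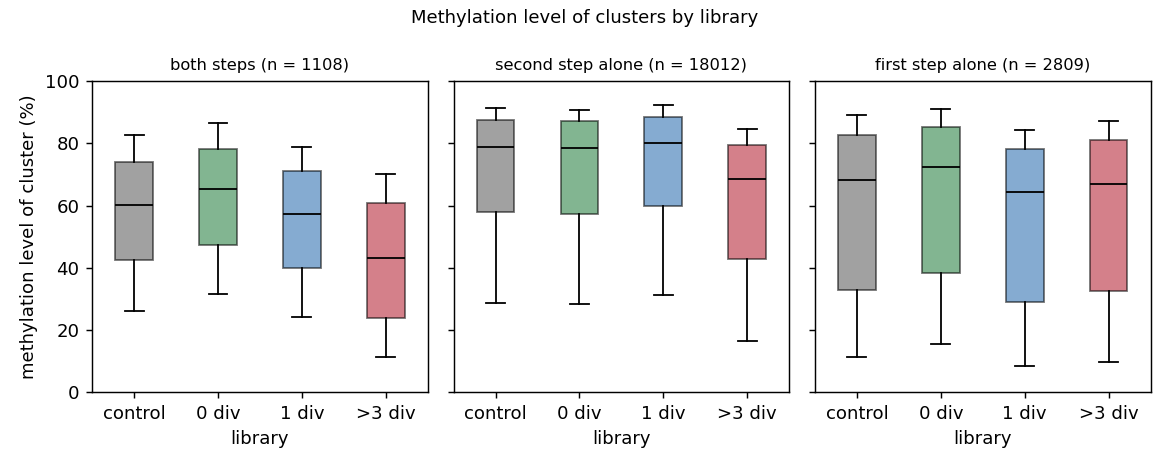
Methylation level of clusters (percent, vertical axis) in the 4 libraries (horizontal axis), for the 1108 clusters that fell at both steps, the 18012 that fell at the second step alone and the 2809 that fell at the first step alone. Boxes span the quartiles with the median as a line, and whiskers run from the 10th to the 90th percentile; in the members the control median of 60.3% lies between those of the 0Div and 1Div libraries.

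The order of levels over 3 libraries gives 4 patterns with both steps of at least 5 points. Besides the 1108 members, 779 clusters fell and then rose, 3208 rose and then fell, and 102 rose at both steps. The first step was passed by 3917 clusters (5.15% of those judged) and the second by 19120 (25.1%). Among first-step fallers 28.3% also fell at the second step, near the 25.1% of all clusters. In the bands of control level from 20% upwards the share was lower among first-step fallers than among all clusters: 34.4% against 51.8% between 20% and 40%, 46.7% against 61.6% between 40% and 60%, 34.4% against 53.5% between 60% and 80%, and 15.0% against 29.7% at or above 80%. Under 20% it was higher, 10.6% against 3.88%. Both steps use the 1Div library, in which a low value by chance makes the first step larger and the second smaller, so these shares are a description.

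The control level did not extend the series of steps in most members. It lay between the 0Div and 1Div levels in 607 members (54.8%, against 22.3% of all clusters judged). It was above the 0Div level in 183 (16.5%, against 43.5% of all). It was at least 5 points below the 0Div level in 516 members (46.6%, against 5.35% of all). It was within 5 points of that level in 566 (51.1%, against 88.7%) and at least 5 points above it in 26 (2.35%, against 5.96%). The median of control minus 0Div was -4.64 points. Against the 1Div library, control was within 5 points in 710 members (64.1%, against 89.2% of all clusters) and at least 5 points lower in 61. The 61 were 5.51% of members, near the 5.75% of all clusters. Control was at least 5 points higher in 337 members (30.4%, against 5.09% of all). The same share was 38.7% in clusters that fell at the first step alone and 4.57% in those that fell at the second alone. The rule picks high 0Div and low 1Div values, so these shares are not independent of it. Control was at least 5 points above the >3Div library in 1019 members (92.0%, against 24.7% of all), and the median of that difference was 13.9 points. That share was 77.5% in clusters that fell at the second step alone and 24.3% in those that fell at the first alone. The rule also picks low >3Div values, so it is not independent of the rule either. The members are called here by their rule.

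**Figure D2:**
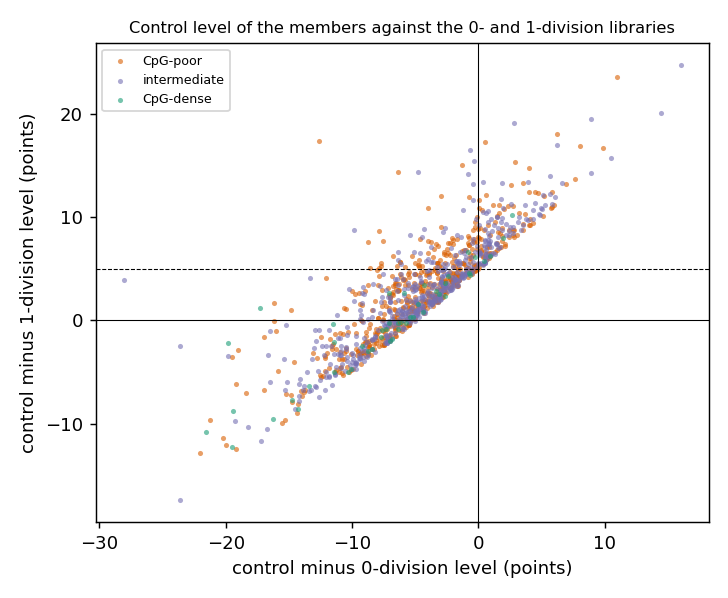
Each of the 1108 members as a point, by control minus 0Div level (horizontal axis, percentage points) and control minus 1Div level (vertical axis, percentage points), coloured by CpG density. Points right of the vertical line had control above the 0Div library (183 members), and points on or above the dashed line at 5 had control at least 5 points above the 1Div library (337 members).

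Methylated and unmethylated reads of all 76115 clusters were compared between each induced library and control (Fisher's exact test, two-sided). Calls needed a difference of at least 10 points and a Benjamini-Hochberg adjusted p under 0.05. This test compares 2 libraries, not the conditions. In the >3Div library 720 members were lower than control (65.0%; 10.1% of all clusters) and 0 were higher (0.59% of all). In the 1Div library 23 were lower (2.08%; 0.137% of all) and 2 were higher (0.204% of all). In the 0Div library 1 was lower (0.376% of all) and 88 were higher (7.94%; 0.381% of all), 32 of which were also lower than control in the >3Div library. Division of the reads by the overdispersion between control and the 1Div library, 1.72, left 3 of the 23 calls in the 1Div library, and it gave 18 members higher than control in the 0Div library. For the contrasts that made the rule, 58 members passed between the 1Div and 0Div libraries (0.28% of all clusters were lower and 0.426% higher there) and 498 between the >3Div and 1Div libraries (10.4% of all were lower and 0.51% higher). These counts follow from how the members were chosen, and nothing is read from them. The rule picks high 0Div and low >3Div levels, so the counts against control are not independent of it and are a description.

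All 23 members lower than control in the 1Div library were also lower in the >3Div library, and the member on chromosome 11 at chr11:117126119-117126152 was lower in all 3 induced libraries. Its 3 CpGs stood at 42.6% (35.5% to 50%) in control, 26.6% (21.9% to 32.0%) in the 0Div, 17.9% (13.1% to 23.8%) in the 1Div and 10.9% (7.56% to 15.5%) in the >3Div library. The adjusted p against control was 0.0163, 0.000247 and 1.17e-11 in the induced libraries in that order (Fisher's exact test). With the reads divided by the overdispersion its 1Div call was lost (adjusted p = 0.0633, Fisher's exact test), and its 0Div call was lost with the overdispersion, with thinning to equal depth and with a 20-point call. The nearest gene start that could be placed was that of Gm39478, a gene model, 1361 bp away.

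On chromosome 16 the member at chr16:48694078-48694089 was at 64.0% in control, 49.5% in the 0Div, 43.8% in the 1Div and 21.3% in the >3Div library. The 0Div difference of this member from control did not pass (adjusted p = 0.0759, Fisher's exact test), while those of the other libraries did (0.0277 and 5.03e-12). Its 1Div call was lost with the overdispersion (0.752) and with thinning (0.0729). At chr9:110587083-110587192 the levels were 45.1%, 35.2%, 28.3% and 1.81%, the last on 496 reads. Only 1 of its 3 CpGs fell at both steps. With equal weight per CpG the levels were 45.1%, 31.2%, 27.3% and 3.21%, so the first step was under 5 points. Its 1Div call was lost with the overdispersion (adjusted p = 0.634, Fisher's exact test) and kept with thinning (0.0467). Members that were high in control also occur among the 23: at chr3:5518845-5518874 the level went from 95.6% in control through 90.7% and 85.4% to 79.2%, and at chr11:76362789-76362944, 22018 bp after the start of Abr, through 90.9%, 84.8%, 78.9% and 71.7%. The Abr member passed the adjusted p in the 0Div library (0.00793, Fisher's exact test) but not the 10 points, as its difference from control there was 6.09 points. Its 1Div call was kept with the overdispersion and with thinning. The chromosome 3 member lost its 1Div call with the overdispersion (adjusted p = 0.794, Fisher's exact test) and with thinning (0.905).

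Members were mostly alone. With members at most 10 kb apart joined, 22 runs of 2 or more held 50 members (4.51%), and 1058 stood alone. The only run of more than 2 held 8 members over 7941 bp at chr8:125949956-125957896. It lies between the placed starts of Tubb3, a neuronal beta-tubulin, and Def8, a regulator of lysosome position, which neighbour each other in the RefSeq table. Its median levels were 68.6% in control, 70.6% in the 0Div, 52.8% in the 1Div and 25.5% in the >3Div library. Control was within 5 points of the 0Div level in 6 of the 8 members and at least 5 points above the 1Div level in 7 of the 8, and those 7 are among the 23 called lower than control in the 1Div library. Of these 7 calls, 2 were kept with the overdispersion and 3 with thinning. Of its 47 CpGs, 43 fell at both steps.

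Within this run the second step varied more than the first. At chr8:125953781-125953979 the level was 75.4% in control, 75.8% in the 0Div, 62.2% in the 1Div and 11.2% in the >3Div library (9.38% to 13.4%), and the second step of 50.9 points was the largest of all members. At chr8:125955331-125955414 it was 70.6%, 70.1%, 53.3% and 11.8%. At chr8:125951425-125951608 the levels were 70.5%, 71.2%, 53.9% and 41.0%, and with equal weight per CpG the >3Div level of this member was 27.3%. At chr8:125951810-125952089 they were 66.7%, 71.5%, 52.3% and 37.7%. The members at chr8:125951425 and chr8:125951810 had 2476 and 2790 reads in the >3Div library, against 857 and 829 in control. The first member of the run, at chr8:125949956-125950096, was the exception: control was at 37.7%, below the 53.3% of the 0Div and the 47.7% of the 1Div library. Clusters on either side, at chr8:125949806-125949847 and chr8:125958011-125958052, were at 83.3% and 87.0% in control, 82.2% and 82.9% in the 1Div and 53.9% and 55.5% in the >3Div library, so they had the second step without the first. A cluster inside the run that was no member, at chr8:125956533-125956579, was lower in both the 0Div (49%) and 1Div library (52.6%) than in control (70.8%). The dense cluster at the Def8 start was at 0.416% in control and 0.272% in the >3Div library.

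Reads in the run were not fewer but more numerous in the >3Div library than in control, unlike the members as a whole. The ratio of reads to control ran from 1.41 to 4.0 in the >3Div library (median 2.42) and from 0.928 to 1.3 in the 1Div library. Whether the number of copies or the fragments sampled differed there was not tested. With each CpG given equal weight, 7 of the 8 members kept both steps of at least 5 points.

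**Figure D3:**
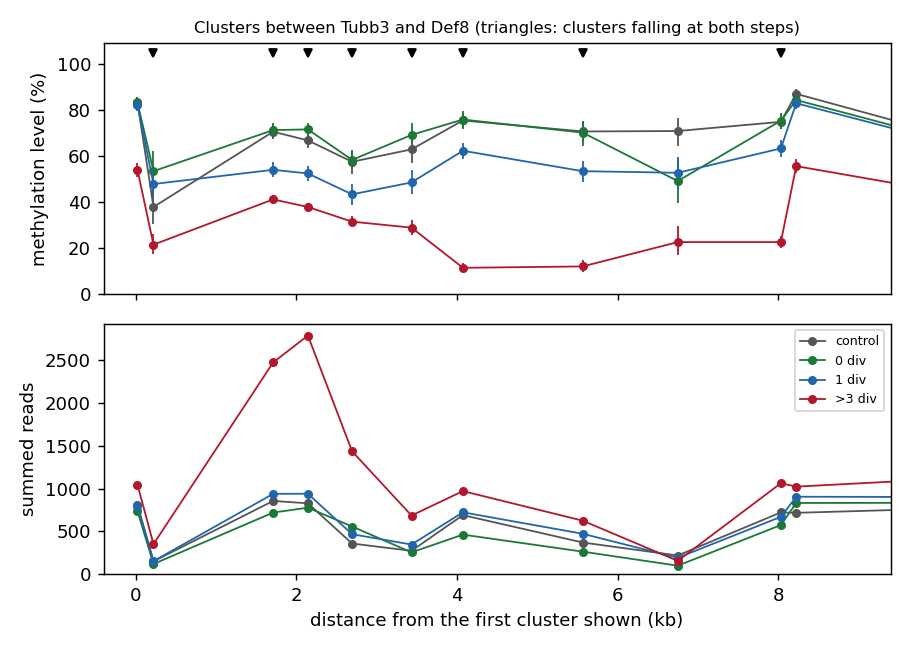
Clusters around the run of 8 members between Tubb3 and Def8, by distance from the first cluster shown (kb, horizontal axis): methylation level with 95% Wilson intervals (percent, upper panel) and summed reads (lower panel) in the 4 libraries. Triangles mark the members; there the 1Div line lies below those of control and the 0Div library in 7 of 8, and the >3Div library has 1.41 to 4.0 times the reads of control.

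In some of the members with the largest steps the 0Div library stood apart from both control and the 1Div library. Their ranking favours large differences between the 0Div and 1Div libraries, and so high 0Div levels, so this is a description. Ranked by the smaller of the 2 steps, the first was chr8:95201286-95201299, whose 5 CpGs all fell at both steps. It was at 46.3% (39.7% to 52.9%) in control, 74.3% (69.1% to 78.9%) in the 0Div, 42.3% (35.6% to 49.3%) in the 1Div and 2.5% (0.854% to 7.09%) in the >3Div library. Control and 1Div intervals overlapped, and control minus 0Div was -28.1 points. The second, chr8:72220646-72220687, had the same order, with 49%, 72.6%, 51.5% and 28.8%. A CpG-dense member, chr9:4977701-4977814, was at 44.8%, 64.7%, 47.0% and 8.36%. Some of the 10 members with the largest smaller step had control at least 10 points above the 1Div library. These exceptions were 2 members of the chromosome 8 run, chr7:67149755-67149785 and chr9:5680769-5680880 (61.8%, 64.7%, 49.7% and 33.6%). In the chromosome 9 exception only 1 of 3 CpGs fell at both steps. With equal weight per CpG it was at 69.6%, 67.5%, 61.4% and 54.9%, so control was less than 10 points above the 1Div library.

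Imprinted genes carried several members. The list held 53 imprinted genes, of which 19 had a start that could be placed and 17 had clusters within 3 kb of it; 5 of their 55 clusters were members (9.09%). Over all 8876 placed genes 104 of 17752 such clusters were members (0.586%). The second step was passed by 36.4% of clusters near imprinted starts and 6.42% of those near all placed starts, and their median control levels were 5.79% and 0.861%. This difference was not tested, nor compared at like level. The members near starts were 2 at Gnas and 1 each at Plagl1, Mkrn3 and Slc22a3.

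Gnas encodes the alpha subunit of the stimulatory G protein, in a locus with several promoters of which some are imprinted. One Gnas member, chr2:174110608-174110666, 817 bp after a placed start, was at 23.2% (18.9% to 28.1%) in control, 44.8% (39.4% to 50.3%) in the 0Div, 34.0% (28.9% to 39.5%) in the 1Div and 4.86% (3.05% to 7.64%) in the >3Div library. Control was thus lower than both the 0Div and the 1Div library. The other Gnas member, chr2:174153897-174154044, 1535 bp before a placed start, was at 34.9% of 1023 reads, 43.3% of 864, 37.7% of 839 and 11.5% of 731. Over the 9 clusters near Gnas starts the medians were 33.7%, 43.3%, 36.7% and 7.34%.

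Mkrn3, a makorin ring-finger gene expressed from the paternal copy, had a member 907 bp after its start at 37.6%, 47.0%, 41.2% and 23.6%. Slc22a3, an organic cation transporter that is imprinted in placenta, had one 336 bp before its start with low levels of 12.9%, 17.3%, 11.9% and 6.69%. In neither did control exceed the 0Div level. Mcts2, an imprinted retrogene, shows an imprinted start with the second step alone: its cluster was at 49% in control, 48.5% in the 0Div, 49.6% in the 1Div and 16.8% in the >3Div library.

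Further members had an imprinted gene as the nearest placed start at a greater distance. Inside Igf2r, the receptor that clears insulin-like growth factor 2, the member at chr17:12934455-12934472 lay 28107 bp after the start. Airn, the noncoding RNA that silences Igf2r on the paternal copy, overlaps Igf2r in the RefSeq table. The 3 CpGs were at 57.2% (50.8% to 63.4%) in control, 46.2% (41.1% to 51.4%) in the 0Div, 33.6% (27.8% to 40.1%) in the 1Div and 2.27% (0.975% to 5.21%) in the >3Div library. The adjusted p of the Igf2r member against control was 0.111, 0.000372 and 1.73e-40 in the induced libraries (Fisher's exact test), so the 0Div difference of 11 points did not pass. With the overdispersion the 1Div call of this member was lost (0.165).

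On chromosome 7 the member at chr7:67149755-67149785 was at 43.7% (37.3% to 50.3%) in control, 40.9% (36.1% to 45.8%) in the 0Div, 24.6% (19.5% to 30.4%) in the 1Div and 8.42% (5.77% to 12.1%) in the >3Div library. Its nearest placed start was that of Ube3a, 665651 bp away. The promoter of Snrpn, a paternally expressed gene of the same imprinted domain, matched 2 places on the chromosome by the spacing of 4 CpGs, too few to be accepted, and 1 of these lay 314 bp from the member. The adjusted p of this member was 0.843 in the 0Div, 0.00746 in the 1Div and 1.03e-18 in the >3Div library (Fisher's exact test against control). In the 1Div library it was 0.575 with the overdispersion, which ends the call, and 0.0463 with thinning. Members 36497 bp after the Zdbf2 start and 57309 bp after the Phlda2 start, both imprinted, were at 71.4%, 73.1%, 68.0% and 41.1% and at 49.4%, 60.9%, 49.8% and 43.8%.

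**Figure D4:**
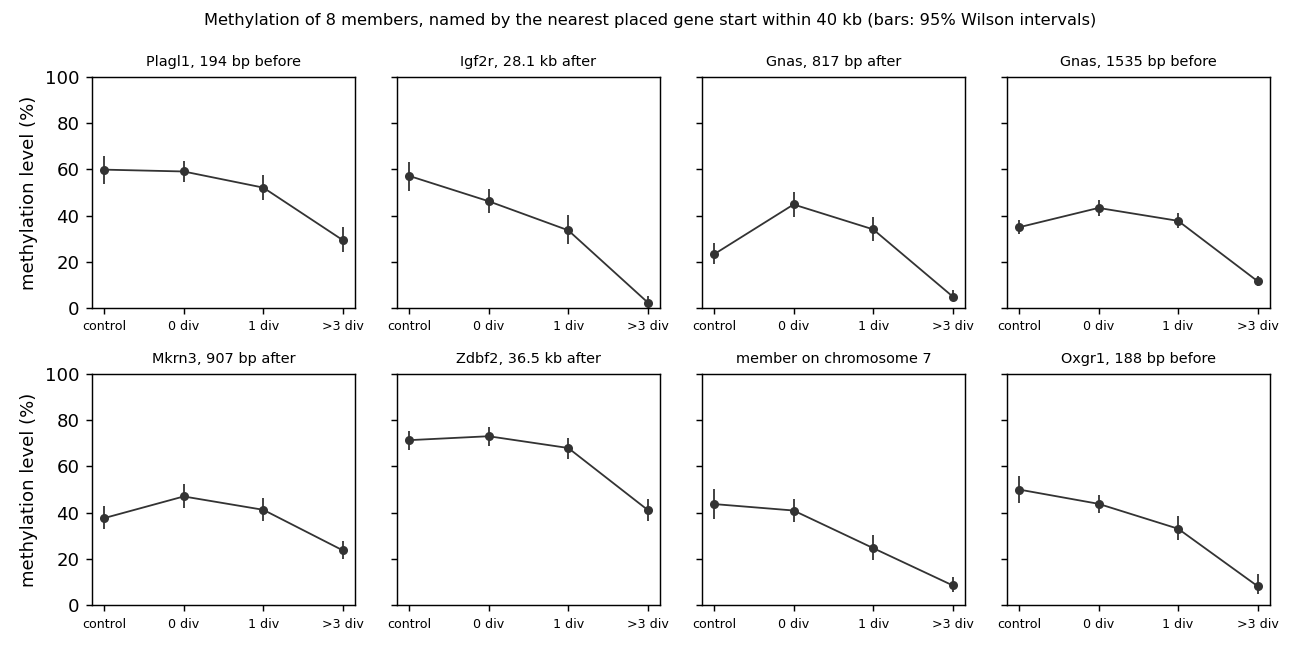
Methylation level (percent, vertical axis) with 95% Wilson intervals in the 4 libraries (horizontal axis) for 7 members nearest to imprinted genes and the member at the Oxgr1 start. Plagl1, Igf2r, Oxgr1 and the chromosome 7 member have their highest level in control, but none of them was called lower than control in the 0Div library. Mkrn3, Zdbf2 and both Gnas members peak in the 0Div library. The chromosome 7 member has no placed start within 100 kb.

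Developmental transcription factors, the other list used, had 6 members among 426 clusters near 97 placed starts (1.41%, against 0.586% for all placed genes). The second step, alone or with the first, was passed by 16.4% of these clusters and 6.42% of those near all placed starts, and the median control levels were 2.72% and 0.861%. This difference was not tested, nor compared at like level. The members were near Barx1, Foxa2, Hoxd10, Hoxd9, Msx1 and Onecut1. Foxa2, a pioneer factor of endoderm, had a member at 23.2% in control, 38.0% in the 0Div, 31.0% in the 1Div and 19.7% in the >3Div library. Msx1, a homeobox factor of limb and craniofacial mesenchyme, had one at 25.5%, 33.7%, 23.6% and 3.21%. Near Hoxd10, a factor of limb patterning, the levels were 33.6%, 39.4%, 33.3% and 14.6%. In all 6 the control level was below that of the 0Div library, and at Hoxd9 control minus 0Div was only -0.214 points (47.2% and 47.5%).

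Gene starts in general held few members. Of the 1077 members on chromosomes with promoter sequences, 20 were within 300 bp of a placed start (1.86%; 13.5% of all clusters), 55 within 1 kb (5.11%; 21.0% of all) and 104 within 3 kb (9.66%; 24.1% of all). Within 1 kb the share was 3.18% in clusters that fell at the second step alone and 6.67% in those that fell at the first alone. Few clusters near starts is thus a trait the members share with both groups. Starts could be placed for 8876 genes only, so a member far from a placed start may lie at another one. Besides Oxgr1, members within 1 kb of a start with a first step of about 10 points or more included those of Cux1, a homeobox repressor, Lap3, an aminopeptidase, and Il12a, the p35 subunit of interleukin-12. At Cux1 the level was 66.9% in control, 58.0% in the 0Div, 47.4% in the 1Div and 27.9% in the >3Div library. The Cux1 intervals of control (58.5% to 74.4%) and 0Div (51.8% to 64.0%) overlapped, and this member is not among the 23 called lower than control in the 1Div library. At Lap3 it was 51.2%, 51.1%, 40.3% and 20.8%, and at Il12a 80.6%, 80.8%, 70.8% and 50.5%, with control and the undivided library close in both. Cux1, Lap3 and Il12a were chosen after their values were seen. Apart from them and Oxgr1, every member within 1 kb with a first step above 10 points had control below the 0Div library. Those were at Gpn2 (10.4% in control and 19.6% in the 0Div library), A1cf (69.0% and 78.2%), Mmp23 (75.5% and 81.7%) and Ptpn20 (49.3% and 55.7%). The Gnas member 817 bp after a start was another.

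Members differed from clusters at large in CpG density and starting level. Density was counted as the CpGs listed within 100 bp on either side, and clusters with up to 4 were CpG-poor and those with 12 or more CpG-dense. Members were 551 of 16170 CpG-poor clusters (3.41%), 510 of 39176 intermediate (1.3%) and 47 of 20769 CpG-dense clusters (0.226%). CpG-poor clusters were 49.7% of members, 43.4% of clusters that fell at the first step alone and 32.5% of those at the second alone. They were 21.2% of all clusters. The CpG-dense shares were 4.24%, 7.16%, 6.18% and 27.3% in that order. Density was not compared at like level. By control level they were 5.43% of clusters between 20% and 40%, 8.03% between 40% and 60% and 4.3% between 60% and 80%, but 0.181% of those under 20% and 0.522% of those at or above 80%. A cluster under 10% in the 0Div library cannot fall by 5 points at both steps. The 47 CpG-dense members had medians of 35.5% in control, 44.8% in the 0Div, 37.7% in the 1Div and 23.2% in the >3Div library, and in 6 of them (12.8%) control was at least 5 points above the 1Div level, against 32.5% of CpG-poor members. Across autosomes the share of clusters that were members ran from 0.987% on chromosome 17 to 1.92% on chromosome 9.

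The members held 5004 CpGs, of which 3083 (61.6%) were lower at both steps, against 15.4% of CpGs in all clusters judged. The rule summed these same reads, so the share is a description of the members and supports nothing. In 242 members every CpG fell at both steps, and in 17 none did. A level from summed reads can also move when reads shift between CpGs of different level. With equal weight per CpG, 711 members kept both steps of at least 5 points and 1059 kept the sign of both, while 276 had a first step and 159 a second step under 5 points. The 711 had equal-weight medians of 58.4% in control, 63.5% in the 0Div, 54.3% in the 1Div and 39.6% in the >3Div library, and in 33.6% of them control was at least 5 points above the 1Div level.

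The most deeply covered member shows such a shift. Dazl encodes an RNA-binding protein of germ cells, and the 44 CpGs at its start (chr17:50432159-50432739) gave 41.8% of 2864 reads in control, 44.2% of 2794 in the 0Div, 37.5% of 2880 in the 1Div and 16.7% of 3481 in the >3Div library. With equal weight per CpG the levels were 26.5%, 26.8%, 28.0% and 26.5%. Its 11 CpGs of higher level averaged 92.9%, 91.1%, 88.3% and 89.1%, and their share of the member's reads was 41.4%, 43.3%, 35.2% and 13.7%. With equal weight per CpG neither step at Dazl reached 5 points, while the share of reads on its highly methylated CpGs was lower at both steps.

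At Setd3, an actin histidine methyltransferase, the 57 CpGs at the start (chr12:109416943-109417557) gave 6.68%, 14.3%, 7.64% and 0.788%. The methylation sat in 7 neighbouring CpGs that averaged 47.0% in control, 57.0% in the 0Div, 58.8% in the 1Div and 2.93% in the >3Div library, and the other 50 averaged at most 1.97%. The share of reads on the 7 CpGs was 13.1%, 22.7%, 11.4% and 11.9%. On these 7 CpGs the 1Div level was not below the 0Div level, whereas the >3Div level was below both.

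**Figure D5:**
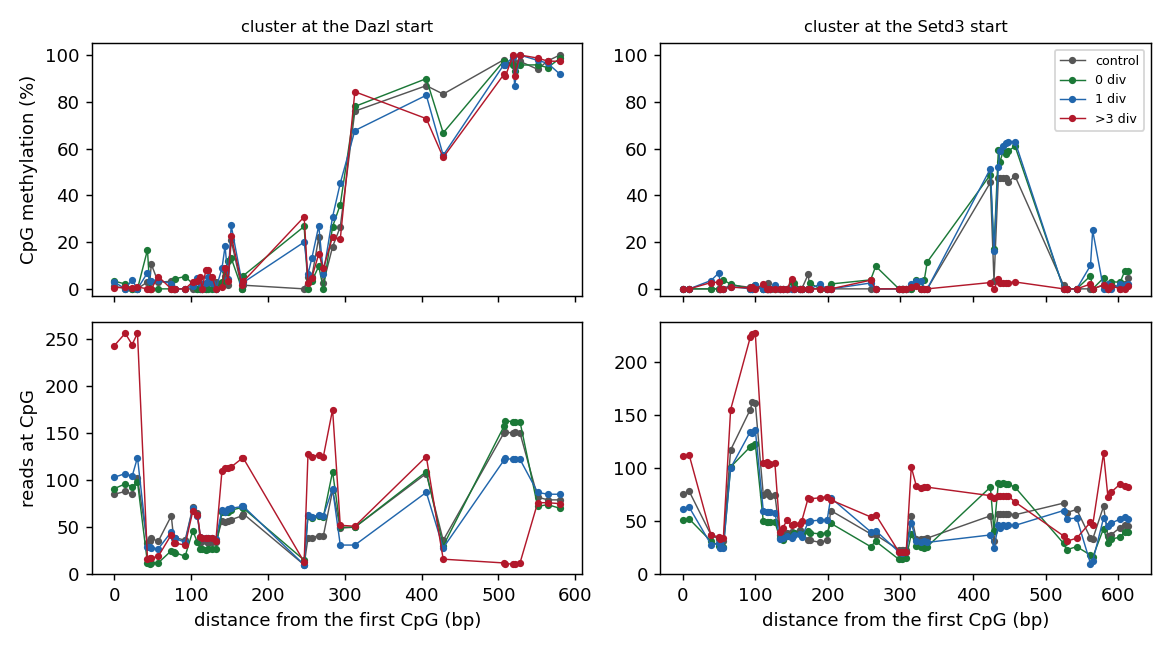
Methylation of each CpG (percent, upper panels) and reads on it (lower panels) along the Dazl (left) and Setd3 (right) members, by distance from the first CpG (bp, horizontal axis), in the 4 libraries. At Dazl the lines of CpG level lie together while the reads on the highly methylated CpGs drop in the >3Div library, and at Setd3 the 7 CpGs of high level are near 0 in that library alone.

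Near the threshold of the rule the members merge with other clusters. The 2 members just inside the first step had first steps of 5.0 points, with levels of 17.9%, 25%, 20% and 14.1% at chr8:123608962-123608993 and of 35.2%, 44.9%, 39.9% and 16.5% at chr13:107911981-107912077. With equal weight per CpG the levels of the chromosome 13 member were 52.8%, 54.7%, 53.1% and 44.3%. Of the 148 levels of the named members (37 members in 4 libraries), 103 stayed within their Wilson interval under equal weight per CpG. Just outside it were chr9:63566635-63566700 (32.4%, 37.7%, 32.7% and 18%) and chr19:59543595-59543736 (37.8%, 41.5%, 36.5% and 26.6%). Just inside the second step were chr5:116979188-116979256 (second step 5.01 points) and chr11:116319173-116319263 (5.03 points), and just outside it chr2:94379901-94379983 and chr6:57283776-57283980 (4.98 points each). In a member with few reads a 95% interval of a level spans more than such a step: at chr5:116979188-116979256 the 1Div level of 82.8%, on 122 reads, had an interval of 75.1% to 88.5%. At the deeply covered chr13:107911981-107912077 the 0Div and 1Div intervals, 42.7% to 47.1% and 37.7% to 42.0%, did not overlap.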

How the data were processed

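RRBS was run on 4 libraries, 1 per group. The authors deposited, per library, a headerless table of CpG positions with methylated and unmethylated read counts; which number is the methylated one was settled from the values. The build was mm9 (per the submitters' processing notes), and positions were used as listed, since the labels do not say whether they count from 0 or 1. Fragments of 40 to 220 bp were selected, per the labels' protocols. For the aligner, the methylation caller and duplicate reads, the tool or treatment was not given in the sources used here.

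The 1045368 CpGs that reached 10 reads in each library, of 2057290 listed, were joined into 99566 clusters, X included. Members, gene lists and tests were chosen with earlier results of these data known. Fisher's exact tests (scipy 1.17.1) were adjusted over all 76115 autosomal clusters judged and tested on simulated data. P-values are too small, because CpGs share reads and the reads have no molecular identifiers. Named members were the 10 with the largest smaller step, the 6 with most reads in their shallowest library, the 5 highest and 5 lowest by control minus 0Div, the 5 closest pairs and the 2 on each side of each threshold.

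Gene starts came from 32851 RefSeq promoters (250 bases before to 50 after a start; GRCm38.p6), placed where their CpG spacing matched the listed positions at a single place of their chromosome. Of these, 10023 were placed once, for 8876 genes, with a median of 19 CpGs; placements on a wrong chromosome numbered 47 against 10311 on the right one. Promoters of chromosome 18, with 31 members, were not used here.

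Alternatives were other coverage, read, gap, CpG and step minimums, equal weight per CpG, thinning to equal depth, removal of CpGs past the 99.9th coverage percentile, a 20-point call, and division of reads by the overdispersion of 1.72 between control and the 1Div library.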

Additional observations from a re-analysis of the deposited data

How the results depend on the processing

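No paired analysis was possible because each group has 1 library. The members numbered 342 with at least 5 CpGs, 501 with at least 200 reads, 3052 with steps of 3 points and 91 with steps of 10 points, against 1108. Equal weight per CpG kept 711 of the 1108 members (64.2%) and thinning to equal depth 697 (62.9%). The median control level of 60.3% was 56.9% with a gap of 50 bp, 62.8% with 200 bp, 56.0% with at least 5 CpGs, 64.5% and 55.6% with at least 50 and 200 reads, 65.1% with thinning, and 66.7% and 56.1% with steps of 3 and 10 points. The share with control at least 5 points above the 1Div library was 25.7% with at least 5 CpGs, and 22.4% and 49.5% with steps of 3 and 10 points. The share with control at least 5 points above the >3Div library was 83.8% and 98.9%, and the median of 0Div minus control 3.19 and 6.64 points, with the same steps. With a 20-point call, division by the overdispersion and thinning, the members lower than control in the 0Div library numbered 0, 0 and 0, those higher 7, 18 and 41, those lower in the 1Div library 3, 3 and 10, and those higher there 0, 0 and 0. At 20 points 276 members were lower in the >3Div library. Why these values moved was not tested, except that larger minimums leave fewer clusters.

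With 1 library per group, no spread between cultures can be estimated. The members lower than control in the 1Div library under the overdispersion were the Abr member and 2 of the run between Tubb3 and Def8; those at Oxgr1 and in Igf2r had adjusted p = 0.54 and 0.165 there (Fisher's exact test), and with thinning 0.564 and 0.00173.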

Other observations

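The X chromosome was not part of the rule, but the same 2 steps can be read there. Of 3313 X clusters with enough reads, 96 fell by at least 5 points at both steps (2.9%, against 1.46% on autosomes). Their median level was 13.3% in control, 22.0% in the 0Div, 12.7% in the 1Div and 3.51% in the >3Div library, which is lower throughout than in the autosomal members. CpG-dense clusters made up 37 of the 96 (38.5%), against 4.24% of the autosomal members. Of the 650 CpG-dense X clusters 5.69% fell at both steps, against 0.226% of autosomal CpG-dense clusters. These differences between X and autosomal clusters were not tested, nor compared at like level. Control was at least 5 points above the 1Div level in 13 of the 96 (13.5%), and the median of control minus 0Div was -7.91 points.

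Pairs of neighbouring members did not always share their order with control. On chromosome 11 the members at chr11:85700083-85700103 and chr11:85700212-85700245 differed in control minus 1Div, which was 3.54 and -6.48 points. On chromosome 9 the members at chr9:109321988-109322063 and chr9:109322218-109322280 differed in control minus 0Div, which was -4.86 and 4.43 points. At C330024D21Rik the second member of the pair, chr5:67855291-67855320, was at 74.1%, 76.0%, 70.1% and 57.4% in control and the 0Div, 1Div and >3Div libraries.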
